A study of Mus musculus with 6 samples.

Results

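The transglutaminase genes Tgm2, Tgm1 and F13a1 were examined in the RNA sequencing of bone marrow mesenchymal stromal cells (BMSCs) from C57BL/6 mice, cultured with or without retinoic acid (RA). The genes were chosen by name, as the rows of the count tables named for them, and were 3 of the 25722 genes listed. All 3 passed the expression filter of edgeR, which left 13842 genes for testing. The control group held 3 libraries from wild-type cultures given the solvent DMSO, and the RA-treated group held 3 libraries from wild-type cultures given all-trans RA. The labels give 1 μM RA for 48 h, whereas the methods of the study give a lower dose and a shorter time for these samples. The cells of both groups were the adherent fraction of tibia and femur marrow, kept at early passage in low-glucose medium with fetal bovine serum and a ROCK inhibitor. The labels speak of 2 biological replicates per condition although 3 libraries per group were used here, so the p-values measure the spread between these libraries, which may in part be technical.

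Transglutaminases are calcium-dependent enzymes that join the side chains of glutamine and lysine residues and so cross-link proteins. Tgm2 encodes tissue transglutaminase, an enzyme found inside cells and in the extracellular matrix that also binds GTP, and it is a long-known target of RA in macrophages and other cells. Tgm1 encodes the membrane-bound enzyme that builds the cornified envelope of keratinocytes. F13a1 encodes the A subunit of coagulation factor XIII, which cross-links fibrin and is made by megakaryocytes, monocytes and tissue macrophages.

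The 3 genes share the catalytic centre of the family, in which a cysteine attacks the glutamine of the substrate. The coding sequence around this cysteine is shown because it is the feature that makes the 3 genes a family. Each line holds 60 bases of the GRCm38 transcript, from 5′ to 3′, with the cysteine codon in capitals, and all 3 genes lie on the minus strand.
Tgm2: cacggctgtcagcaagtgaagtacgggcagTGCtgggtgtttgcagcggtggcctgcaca
Tgm1: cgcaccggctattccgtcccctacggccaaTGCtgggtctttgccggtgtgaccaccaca
F13a1: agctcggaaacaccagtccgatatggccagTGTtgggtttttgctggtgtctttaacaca

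The stretch of Tgm2 lies at chr2:158131332-158131391 in exon 6 of 13, and its cysteine is codon 277 of 686. The stretch of Tgm1 lies at chr14:55709395-55709454 in exon 7 of 15, with the cysteine at codon 376 of 815. The stretch of F13a1 lies at chr13:36946444-36946503 in exon 7 of 15, with the cysteine at codon 315 of 732. Of the 60 bases, 28 were the same in all 3 genes. Tgm2 and Tgm1 shared 37 of 60 bases, Tgm2 and F13a1 shared 31, and Tgm1 and F13a1 shared 38. Read as codons, 11 of 20 amino acids were the same in Tgm2 and Tgm1, 11 in Tgm2 and F13a1, and 12 in Tgm1 and F13a1.

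The libraries held between 14737636 and 18511905 counts, and on these unscaled totals 3 counts were worth 0.162 to 0.204 CPM. All other CPM values are read counts relative to the TMM-scaled library size. A principal component analysis of the 1000 genes with the highest variance put 57.2% of it on a first component that did not follow treatment. On its positive side stood control 2 with RA-treated 1 and 2, called library set 1 here, and on its negative side stood control 1 and 3 with RA-treated 3, called library set 2. The same sets were found without the 3 transglutaminase genes. The labels give no batch that corresponds to these sets. All 14 macrophage markers were expressed, and their summed level was 21492 to 23670 CPM in control and 20888 to 22277 CPM in RA-treated libraries. The summed level of the 11 stromal markers was 1267 to 2396 CPM in control and 1055 to 1993 CPM in RA-treated libraries. Among them Col1a1 had 6073 to 30985 counts, Cxcl12 5256 to 10397 and Pdgfrb 861 to 2516 per library, whereas Nt5e had 2 to 21 and Thy1 0 to 7, with 0 in RA-treated 3. The libraries carried abundant macrophage transcripts beside stromal transcripts, and in such bulk RNA fewer cells of a type and less RNA per cell cannot be told apart.

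Tgm2 was the most abundant of the 3 genes and had higher values in every RA-treated library than in any control. Tgm2 (ENSMUSG00000037820, chr2:158116402-158146436 in GRCm38) had 766, 1731 and 856 counts in control 1 to 3 and 4562, 3254 and 2595 counts in RA-treated 1 to 3. On the CPM scale these were 53.6, 92.1 and 58.9 in control and 253.6, 206.3 and 177.0 after RA. The lowest RA-treated library was RA-treated 3 and the highest control was control 2, and the groups did not overlap. In 5.71% of all tested genes every RA-treated library likewise lay above every control, and in 12.6% the groups did not overlap in either direction.

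The mean level of Tgm2 was 68.2 ± 20.8 CPM in control and 212.3 ± 38.6 CPM in RA-treated BMSCs (SD, n = 3 each). The log2 fold change was 1.64 with a standard error of 0.25, a 3.11-fold difference with a 95% interval of 2.07 to 4.69. Despite this size, Tgm2 did not pass edgeR's quasi-likelihood test after Benjamini-Hochberg adjustment over all genes (unadjusted p = 0.000364, adjusted p = 0.193). It ranked 26 of 13842 genes by p and 106 by log2 fold change. The exact two-sided permutation test of CPM gave p = 0.1, the smallest value that 3 against 3 libraries allow.

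The call of Tgm2 differed between tests and settings. With edgeR's quasi-likelihood test, 0 of the 3 genes were called at an adjusted p under 0.05 and at least 1.5-fold, where 0.0433% of all tested genes were called. The count was likewise 0 with upper quartile scaling (0.0506% of genes called), a minimum of 10 counts in every library (0.0395%) and the replicate block (0.0289%). It was 0 without control 2 or 3 (0.0141% and 0.00707% of genes called), without RA-treated 1, 2 or 3 (0.00708%, 0.00709% and 0.0424%), and without control 1, where 0 genes were called. At an unadjusted p under 0.05 and the same fold, 1 of the 3 was called, which was Tgm2, against 3.55% of all genes, or 2.13% counting those higher after RA. At an unadjusted p under 0.05 alone the share of all genes was 5.25%. DESeq2 called Tgm2 at an adjusted p of 1.58e-06 (0.983% of genes called, 0.709% higher after RA), edgeR's likelihood ratio test at an adjusted p of 3.34e-06 (0.968% of genes called), and edgeR's quasi-likelihood test without the filter on low counts at an adjusted p of 0.0415 (0.0778% of genes called). With the library set as a covariate, Tgm2 rose by a log2 fold change of 1.49 with a standard error of 0.12 (interval 1.21 to 1.76, edgeR adjusted p = 0.00227), where 1.54% of genes were called, 0.744% higher after RA. Tgm1 and F13a1 were called by none of these 4 alternatives. The library sets were drawn from these same counts, so p-values of the fit with that covariate, here and below, may be too small.

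Since the groups did not overlap, Tgm2 had to be higher after RA within each library set too, and only the size of the difference could vary. In set 1 the level was 92.1 CPM in the control library and 230.0 CPM on average in both RA-treated libraries, a 2.50-fold difference. In set 2 it was 56.3 CPM on average in both controls and 177.0 CPM in the RA-treated library, a 3.15-fold difference. By the same lack of overlap, each RA-treated library lay above the controls of its own set, as in 18.5% of tested genes. The difference in RA effect between the sets, a test chosen after seeing the data, was 0.33 on the log2 scale with a standard error of 0.23 (edgeR interaction, adjusted p = 0.997). Since set 1 held 1 control and set 2 held 1 RA-treated library, this test and those for Tgm1 and F13a1 assume that these lone libraries vary like the replicated ones.

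**Figure D1:**
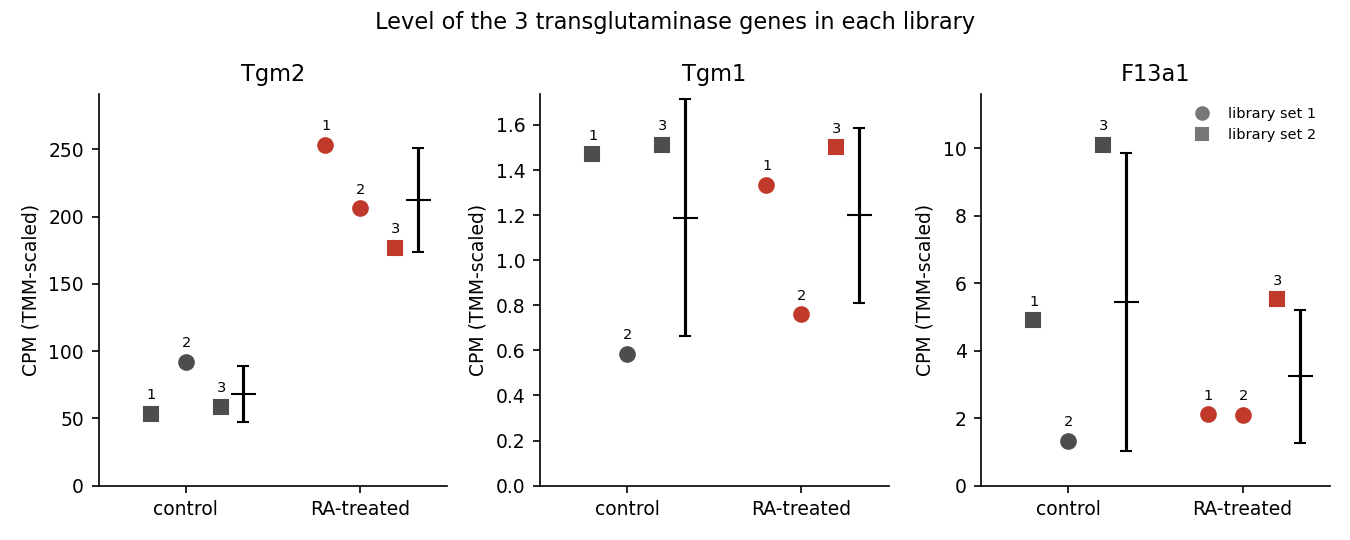
The level of Tgm2, Tgm1 and F13a1 in each library on a linear scale of TMM-scaled CPM, with the replicate number above each point, the library set as the marker shape, and the mean ± SD of the 3 libraries of each group at the side. The RA-treated libraries of Tgm2 sit between 177.0 and 253.6 CPM and its controls between 53.6 and 92.1 CPM, whereas the groups overlap for Tgm1 and F13a1.

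Tgm1, the keratinocyte enzyme, was expressed at a low level, with near-equal group means. Tgm1 (ENSMUSG00000022218, chr14:55700009-55713926) had 21, 11 and 22 counts in control and 24, 12 and 22 counts in RA-treated libraries. The exact Poisson intervals of the lowest and the highest of these counts, 5.49 to 19.7 and 15.4 to 35.7, overlapped, and such intervals cover counting error only. On the CPM scale the values were 1.47, 0.585 and 1.51 in control and 1.33, 0.761 and 1.501 after RA, so that the lowest library of each group was replicate 2, and the groups overlapped.

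The mean level of Tgm1 was 1.19 ± 0.52 CPM in control and 1.20 ± 0.39 CPM after RA (SD, n = 3 each). The log2 fold change was 0.028 with a standard error of 0.46, and the 95% interval of -1.07 to 1.13 left room for a difference of 2.18-fold upwards (edgeR adjusted p = 0.991, exact permutation p = 1.0). With the library set as a covariate it was 0.38, with an interval of -0.49 to 1.24 (edgeR adjusted p = 0.628). Within set 1 the level was 0.585 CPM in the control library and 1.05 CPM on average after RA, and within set 2 it was 1.49 and 1.501 CPM. The test of the difference in RA effect between the sets gave -0.84 with a standard error of 0.75 (edgeR adjusted p = 0.997).

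Transcripts of the proteins that Tgm1 cross-links in skin were few. Of the 9 genes of the cornified envelope, 2 passed the filter, Krt10, a keratin, and Lor, which encodes loricrin, and their 9 levels summed to 3.002 to 4.37 CPM per library. Neither tested gene was called by edgeR, where 0.0433% of all tested genes were called. The log2 fold change was 0.19 for Krt10 (edgeR adjusted p = 0.872) and -0.42 for Lor (edgeR adjusted p = 0.804). Epithelial markers, of which 5 of 7 were listed, were as low, with a summed level of 2.78 to 4.61 CPM per library.

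F13a1, the factor XIII subunit, differed more between libraries of the same group than between the groups. F13a1 (ENSMUSG00000039109, chr13:36867178-37050244) had 70, 25 and 147 counts in control and 38, 33 and 81 counts in RA-treated libraries. On the CPM scale these were 4.90, 1.33 and 10.1 in control and 2.11, 2.09 and 5.53 after RA. Control 3 had the highest level and control 2 the lowest, and all RA-treated libraries lay between them.

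The mean level of F13a1 was 5.45 ± 4.41 CPM in control and 3.24 ± 1.98 CPM after RA (SD, n = 3 each). The log2 fold change was -0.74 with a standard error of 0.74, and its 95% interval of -2.51 to 1.02 spanned both directions (edgeR adjusted p = 0.819, exact permutation p = 0.7). This direction was lost without control 3, where the log2 fold change was 0.064. It was also lost with all libraries and the library set as a covariate, at 0.0056 (interval -0.82 to 0.83, edgeR adjusted p = 0.995). Within set 1 F13a1 was 1.33 CPM in the control library and 2.10 CPM on average after RA, and within set 2 it was 7.51 CPM on average in the controls and 5.53 CPM after RA. The test of the difference in RA effect between the sets gave -1.10 with a standard error of 0.68 (edgeR adjusted p = 0.997).

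F13a1 also differed between the library sets. Its mean was 1.84 CPM in set 1 and 6.85 CPM in set 2, with no overlap between the sets, as in 47.7% of tested genes. Tgm1 did not overlap between the sets either, with means of 0.893 and 1.49 CPM. For Tgm2 the sets overlapped, with means of 184.0 and 96.5 CPM, where set 1 held 2 RA-treated libraries and set 2 held 1. Since the sets were drawn from the same libraries, these values describe them and were not tested.

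Marker genes that differed between the sets are given beside F13a1. Mrc1, the mannose receptor of tissue macrophages, was 105 to 191 CPM in set 1 and 331 to 449 CPM in set 2, and 10 of the 14 macrophage markers were higher in every library of set 2 than in any of set 1, Mrc1 among them. The opposite held for 2 of the 14, Lyz2, the lysozyme gene, with 8722 to 9779 CPM in set 1 and 5543 to 6629 CPM in set 2, and Fcgr1, an Fc receptor gene, with 117 to 137 CPM and 72.9 to 87.5 CPM. Of the 9 tested stromal markers, 4 were higher in every library of set 1 and 0 in every library of set 2. Over all tested genes, 47.7% did not overlap between the sets in either direction. The summed level of all 14 macrophage markers was 20888 to 22165 CPM in set 1 and 21492 to 23670 CPM in set 2. The summed level of the 4 monocyte markers was 20.4 to 29.9 CPM in set 1 and 8.32 to 9.76 CPM in set 2, and 2 of the 4 had 0 counts in some libraries. The summed level of megakaryocyte and platelet markers was 4.04 to 5.00 CPM in set 1 and 6.51 to 7.03 CPM in set 2, counting the 8 of 9 that were listed, and 4 of these 8 had 0 counts in some libraries. The summed level of the 5 endothelial markers was 7.66 to 11.98 CPM in set 1 and 19.8 to 22.0 CPM in set 2. The part of these cells in the level of F13a1 was not tested.

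Levels between the genes were compared per length of exon, as CPM per kilobase. Tgm2 stood at 14.8 ± 4.52 in control and 46.1 ± 8.38 after RA, F13a1 at 0.808 ± 0.655 and 0.481 ± 0.293, and Tgm1 at 0.376 ± 0.166 and 0.379 ± 0.123 (SD, n = 3 each). Tgm2 was above both other genes in every library, whereas the ranges of F13a1 and Tgm1 overlapped.

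Among the reads of the 8 family genes listed, those of Tgm2 made up the largest share in every library. The share of Tgm2 was 88.5% (95% Wilson interval 86.2 to 90.4), 97.1% (96.3 to 97.8) and 82.1% (79.6 to 84.3) in control 1 to 3. After RA it was 98.6% (98.2 to 98.9), 98.2% (97.7 to 98.6) and 95.7% (94.8 to 96.4) in RA-treated 1 to 3. Control 2 lay above RA-treated 3, so the groups overlapped. The share of F13a1 was highest in control 3, at 14.1% (12.1 to 16.3), and lowest in RA-treated 1, at 0.821% (0.599 to 1.12).

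The other family members had few or no reads. Tgm4, the prostate enzyme, had 4 to 14 counts per library, and Tgm5, an epidermal enzyme, had 0 to 5. Tgm3, the hair follicle and epidermal enzyme, and Tgm7 had 0 to 1 count each, and Epb42, the inactive family member of the red cell membrane, had 0 to 3. None of these 5 genes passed the filter.

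The ratio of Tgm2 to cell type markers was taken within each library, since such a ratio does not depend on scaling. Per 1000 reads of the 14 macrophage markers, Tgm2 had 2.50, 4.15 and 2.49 reads in control and 12.1, 9.60 and 7.95 reads after RA. The mean log2 ratio was 1.72 higher after RA, a 3.30-fold difference, with no overlap of the groups (exact two-sided permutation p = 0.1). Per 1000 reads of the stromal markers other than Col1a1, Tgm2 had 100.4, 123.1 and 97.1 reads in control and 294.3, 269.3 and 276.2 reads after RA. This mean log2 ratio was 1.40 higher, a 2.63-fold difference, again with no overlap (exact two-sided permutation p = 0.1). With Col1a1 in the sum, it was 1.86 higher. The difference in Tgm2 was thus present relative to the summed markers of either cell type, and these ratios do not show which cells held the Tgm2 reads.

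F13a1 had 0.230, 0.0612 and 0.428 reads per 1000 macrophage marker reads in control and 0.102, 0.0988 and 0.250 after RA. The mean log2 ratio differed by -0.42 (exact two-sided permutation p = 0.7), and by 0.20 without control 3. It differed by 0.72 within set 1 and by -0.33 within set 2. Tgm2 had 10.9, 67.9 and 5.81 reads for each F13a1 read in control and 118.5, 97.1 and 31.8 after RA. This log2 ratio was 2.14 higher on average after RA, but control 2 lay above RA-treated 3 and the groups overlapped (exact two-sided permutation p = 0.2). Within sets, the difference was 0.66 in set 1 and 2.00 in set 2.

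**Figure D2:**
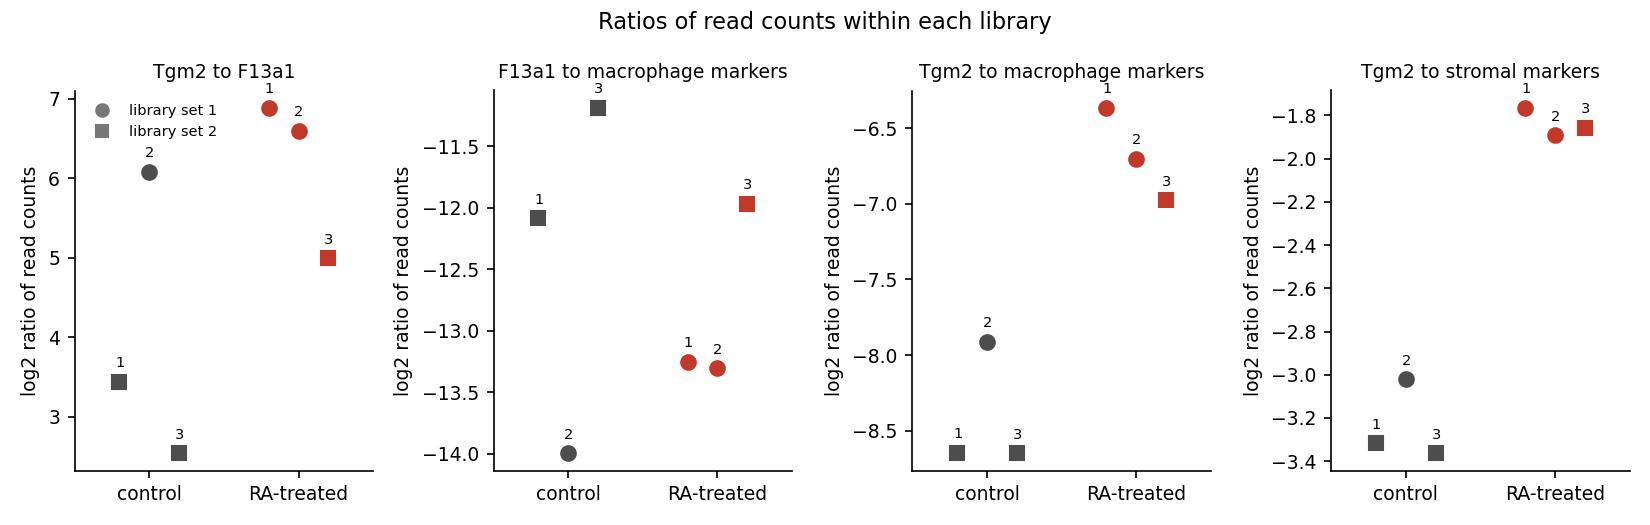
The log2 ratio of read counts within each library for Tgm2 to F13a1, F13a1 to the summed macrophage markers, Tgm2 to the summed macrophage markers, and Tgm2 to the summed stromal markers without Col1a1, with replicate numbers above the points and library sets as marker shapes. The groups are apart in both ratios of Tgm2 to markers, by 1.72 and 1.40 on average, and overlap in both ratios that involve F13a1.

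RA acts through nuclear retinoic acid receptors, and Tgm2 was set beside other genes known to respond to RA. Of the 10 retinoid response genes, 8 were tested, 2 rose (Cyp26b1 and Cd38, edgeR adjusted p = 0.00207 and 0.0201, where 0.0433% of all tested genes were called) and all 8 had higher means after RA, with a median log2 fold change of 2.70. Over all tested genes 47.3% were higher after RA and the median was -0.018. Cyp26b1, which encodes an RA-degrading enzyme, rose by a log2 fold change of 4.35, and Cd38, an NAD-cleaving surface enzyme, by 2.43. Rarb, an RA receptor gene, had a larger log2 fold change than Tgm2 at 3.90 and, like Tgm2, did not pass this test (edgeR adjusted p = 0.156) but passed with the library set as a covariate, at 3.70 (edgeR adjusted p = 0.00387). That fit called 5 of the 8, against 1.54% of all tested genes. Dhrs3, a retinal reductase gene, had a smaller log2 fold change at 0.32 (edgeR adjusted p = 0.799). Of the retinoid receptor genes, 5 of 6 were tested and none was called by edgeR's test without covariates, with 2 at an unadjusted p under 0.05 (40.0% of the 5, against 5.25% of all tested genes), and 1, Rarb, was called with the library set as a covariate. Rara had a log2 fold change of -0.52 (edgeR adjusted p = 0.795).

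Tissue transglutaminase binds or cross-links matrix proteins and their receptors, and none of the genes listed for these passed the test without covariates. All 13 of these genes were tested and 0 were called by edgeR, with 2 at an unadjusted p under 0.05 (15.4%, against 5.25% of all tested genes), and 4 had higher and 9 lower means after RA, with a median log2 fold change of -0.14. Spp1, which encodes the substrate osteopontin, had the highest log2 fold change at 0.51 (edgeR adjusted p = 0.795), and Itgb3, an integrin subunit gene, the lowest at -0.76 (edgeR adjusted p = 0.795). Fn1, which encodes the substrate and binding partner fibronectin, had 1685, 3281 and 1782 CPM in control and 2415, 2222 and 1216 CPM after RA, and the groups overlapped. Its log2 fold change was -0.21 (edgeR adjusted p = 0.892). With the library set as a covariate it was -0.51 (edgeR adjusted p = 0.0290), short of the 1.5-fold needed for a call. With the library set as a covariate, 1 of the 13 was called, against 1.54% of all genes, namely Fbn1, which encodes the microfibril protein fibrillin-1 and fell by 1.01 on the log2 scale (edgeR adjusted p = 0.00643).

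Of 14 genes of coagulation and fibrinolysis, the system in which factor XIII acts, 8 were tested. None was called by edgeR's quasi-likelihood test, 0 had an unadjusted p under 0.05 (against 0.0433% and 5.25% of all tested genes), and 4 had higher and 4 lower means after RA, with a median log2 fold change of -0.067. The fibrinogen genes Fga, Fgb and Fgg, whose product is the substrate of factor XIII, did not enter the test. With the library set as a covariate, 1 of the 8 was called, with a lower level after RA, against 1.54% of all tested genes.

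F13a1 is known as a gene of alternatively activated macrophages, and 7 of 12 genes of that state were tested. None was called by edgeR, with 1 at an unadjusted p under 0.05 (14.3%, against 5.25% of all tested genes), and 2 had higher and 5 lower means after RA, with a median log2 fold change of -0.19. With the library set as a covariate, 1 of the 7 was called, against 1.54% of all tested genes. This was Arg1, with 3 to 254 counts per library and a log2 fold change of 2.40 (edgeR adjusted p = 0.0476). Clec10a, a macrophage lectin gene, had 3.85, 0.851 and 4.88 CPM in control and 1.501, 1.27 and 3.89 CPM after RA, so that its higher libraries were those of set 2. Il4ra and Mrc1 were also higher in every library of set 2, whereas Arg1, Cd163, Pparg and Stat6 were not.

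**Figure D3:**
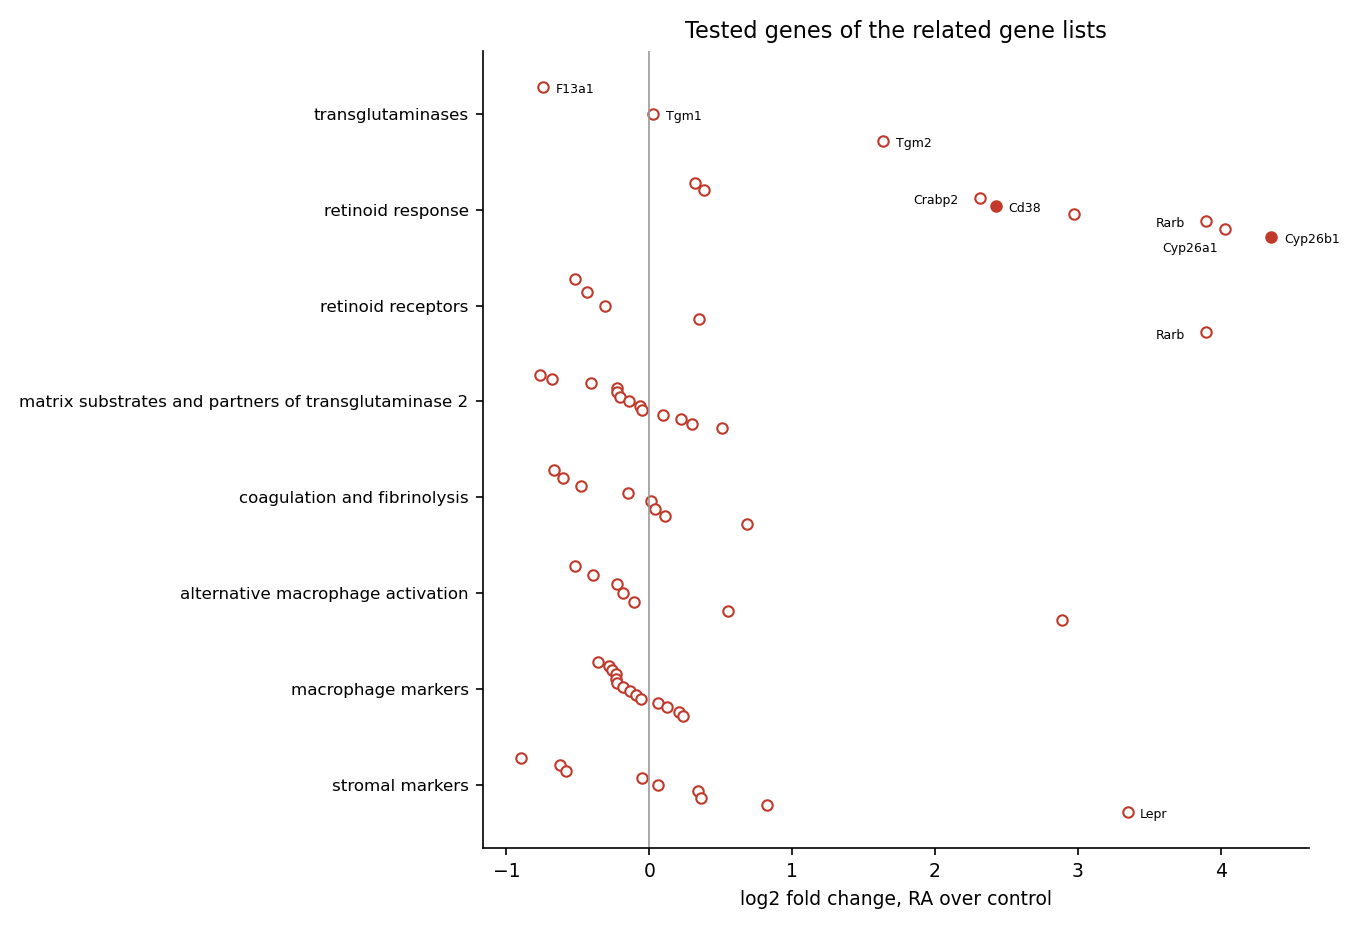
The log2 fold change of RA-treated over control BMSCs for the tested genes of 8 lists, where filled points passed edgeR's quasi-likelihood test at an adjusted p under 0.05 and open points did not. Tgm2 at 1.64 lies within the range of the retinoid response genes, whose median is 2.70, whereas the matrix partners of tissue transglutaminase have a median of -0.14.

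The macrophage and stromal markers themselves are given as a background to Tgm2 and F13a1. Of the 14 macrophage markers, 0 were called by edgeR and 0 had an unadjusted p under 0.05, and the log2 fold changes had a median of -0.16. Of 11 stromal markers, 9 were tested and 0 were called by edgeR, with 4 at an unadjusted p under 0.05 (44.4% of the 9, against 5.25% of all tested genes). Among these were Lepr, the leptin receptor gene of marrow stromal cells, with a log2 fold change of 3.35 (edgeR adjusted p = 0.292), and Ly6a, which encodes the surface protein Sca-1, with -0.90 (edgeR adjusted p = 0.172). With the library set as a covariate both were called, Lepr at a log2 fold change of 3.58 and Ly6a at -0.91 (edgeR adjusted p = 0.00644 and 0.0152), where 1.54% of all genes were called.

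The genes most like each of the 3 across the 6 libraries were sought by the root mean square difference of centred log2 CPM, as a description without a test. Nearest to Tgm2, whose log2 CPM had an SD of 0.878, were Amotl1 at 0.128, Angpt4 at 0.141 and Gda at 0.184, with log2 fold changes of 1.46, 1.55 and 1.81. Nearest to F13a1, with an SD of 0.966, were Matn1 at 0.205, Ms4a4c at 0.213 and Eef1a2 at 0.215. Nearest to Tgm1, with an SD of 0.480, were Bmt2 at 0.110, Gt(ROSA)26Sor at 0.140 and Tmem268 at 0.141. A distance of 0.3 or less was found for 18 genes with Tgm2, 14 with F13a1 and 439 with Tgm1.

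Each gene overlaps exons on the opposite strand, and the strand setting of the counting is not given in the sources used here, so reads in these stretches cannot be assigned. Tgm2 shares 370 bases of its 4608 exon bases with Rprd1b, whose counts were 345, 572 and 366 in control and 539, 498 and 410 after RA, and 633 bases with the unlisted Gm20412. F13a1 shares 74 of 6739 bases with Gm30489, which had 0 to 1 count per library. Tgm1 shares 182 of 3162 bases with the unlisted Gm49067. The reads of Rprd1b were fewer than those of Tgm2 in every library.

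**Figure D4:**
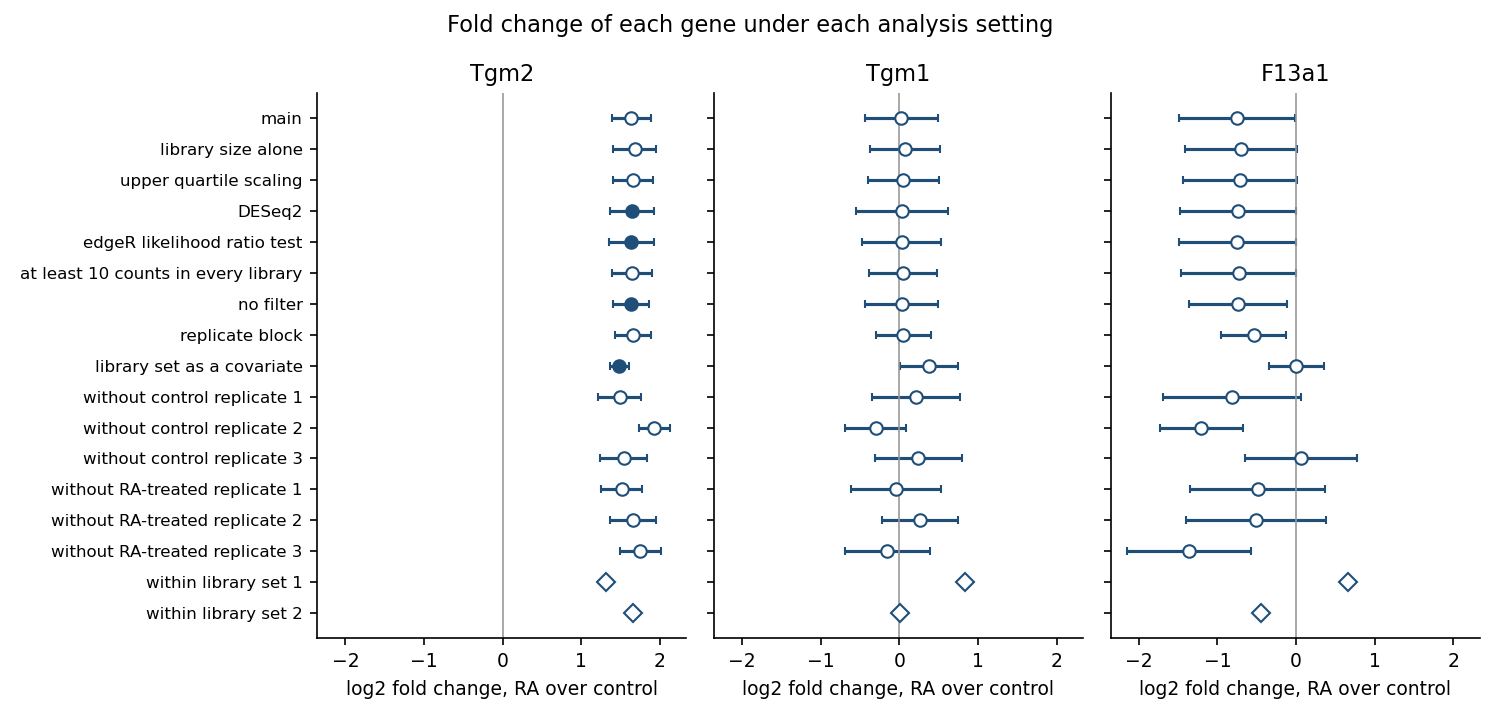
The log2 fold change of RA-treated over control BMSCs for Tgm2, Tgm1 and F13a1 under each analysis setting, where bars are ± 1 standard error, filled points passed at an adjusted p under 0.05, and diamonds are differences of means within a library set, which have no standard error. Tgm2 lies between 1.32 and 1.93 throughout and is filled in 4 settings, whereas Tgm1 and F13a1 fall on both sides of 0.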

How the data were processed

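RNA sequencing of BMSCs gave 3 control and 3 RA-treated libraries. The authors deposited raw counts of reads per gene for each library, without normalization. The submitters' processing notes name Bowtie2 2.2.3 and mm10 without their roles, and the counting program is not given in the sources used here. Groups and replicate numbers came from the labels. Coordinates, exon lengths and transcript sequences came from GENCODE M21 (GRCm38, the same assembly as mm10), which held 25706 of the 25722 identifiers.

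Counts were analysed in R 4.3.3 with edgeR 4.0.16 (TMM scaling, filterByExpr, quasi-likelihood F test without covariates, Benjamini-Hochberg adjustment over 13842 genes). Genes were called at an adjusted p under 0.05 and at least 1.5-fold. Standard errors and 95% intervals were derived from the F statistic. A prior count of 2 entered log2 CPM, and ratios had 0.5 added to each count. Permutation tests used scipy 1.17.1. The fit was tested on simulated data with 200 changed genes. Alternatives were DESeq2 1.42.0, the likelihood ratio test, other scalings and filters, the replicate block, the library set as a covariate, and leaving out each library. Named genes were the 3 genes, genes of fixed lists, with a preference for those with the lowest p, and the 3 genes nearest to each. The test of a different RA effect in the library sets was added after seeing the data. The genes and lists were chosen with earlier results of these data known. Depth was 14737636 to 18511905 counts per library, and the Poisson and Wilson intervals cover counting error only. The qPCR, protein and animal experiments were not analysed here. Some genes of the lists are counted but not reported by name here.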

Additional observations from a re-analysis of the deposited data

How the results depend on the processing

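Tgm2 was higher after RA in all 16 alternatives computed, and its side of the threshold changed in 4. Since its groups did not overlap, the direction could hardly change when libraries were left out or split by set. It passed with DESeq2 (log2 fold change 1.65), the likelihood ratio test (1.64), no filter (1.64) and the set covariate (1.49), so the number of genes called was 1 in these and at an unadjusted p, against 0 otherwise. Leaving out each library gave 1.49 to 1.93 for Tgm2, with 0 genes called each time, -0.30 to 0.27 for Tgm1 and -1.36 to 0.064 for F13a1. Tgm1 changed sign without control 2 (-0.30), RA-treated 1 (-0.038) or RA-treated 3 (-0.16), and was 0.84 within set 1. F13a1 changed sign without control 3 (0.064) or when the library set was a covariate (0.0056), and was 0.66 within set 1. The cause of these changes was not tested.

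The ratios ranged without each library from 1.40 to 3.17 for Tgm2 to F13a1, -1.20 to 0.20 for F13a1 to macrophage markers (0.20 without control 3), 1.56 to 1.97 for Tgm2 to macrophage markers and 1.33 to 1.503 for Tgm2 to stromal markers, the last being 1.19 within set 1. Replicate numbers gave no clear pairing of the libraries. The correlations of same-numbered libraries were -0.51, 0.343 and 0.572, against a mean of -0.0934 for other pairs. Of 6 libraries, 2 correlated best with their own number. The library sets enter these correlations, so they cannot settle whether the numbers mark pairs. With the replicate block the log2 fold changes were 1.66 for Tgm2, 0.053 for Tgm1 and -0.54 for F13a1, and 0 of the 3 were called. Scaling moved the median of all genes only from -0.018 to 0.025. Counts of 11 to 24 per library limit the precision for Tgm1.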
